A study of Mus musculus with 8 samples.

Results

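The genes described here encode activins, myostatin, the follistatin proteins that bind them and the receptors they act on, in mouse Achilles tendon after a sham operation or a partial transection. They are 8 genes, chosen by symbol: the ligand genes Inhba, Inhbb and Mstn, the inhibitor genes Fst and Fstl3, and the receptor genes Acvr1b, Acvr2a and Acvr2b. All 8 had values, among 15747 genes with values of 55450 listed. RNA came from 8 libraries of wild-type C57BL/6J mice, 4 labelled sham and 4 labelled injury by their titles. In the injury, a punch of 1.5 mm diameter set on the lateral side of the right Achilles tendon left a semicircular defect of 0.75 mm, and the tendon was parted from the soleus muscle before RNA was extracted. The sources used here do not state age, sex, the time from injury to sampling or any pooling of animals. Nothing in the labels says that the libraries came from separate mice, so each p-value speaks only of the spread among these libraries, which may be technical.

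Activins and myostatin belong to the transforming growth factor beta family. They are secreted as precursors, cut by proprotein convertases, and bind a type II receptor (Acvr2a or Acvr2b), which recruits a type I receptor such as Acvr1b to phosphorylate SMAD2 and SMAD3. Follistatin and follistatin-like 3 bind the ligands outside the cell and block receptor binding. Myostatin is best known as a muscle-secreted brake on muscle growth, and in mice it is also known to be expressed by tendon fibroblasts.

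In injured tendon the RNA of 2 ligands was higher, Mstn by 7.95-fold and Inhba by 3.48-fold, while Inhbb was 3.50-fold lower. Of the inhibitors, Fst was 1.69-fold lower and Fstl3 was 1.51-fold higher. The receptor genes Acvr1b and Acvr2a were 1.27-fold and 1.24-fold lower, and Acvr2b did not pass the test. In all, 3 members rose and 4 fell in limma (Benjamini-Hochberg over all 15747 genes, threshold 0.05). In the same test 59.7% of all genes were called, 28.5% higher and 31.3% lower. Sham and injury values did not overlap for 7 of the 8 members, all but Acvr2b, against 55.6% of all genes. Inhba, Inhbb and Mstn were also past 2-fold, as were 21.2% of all genes. The median log2 fold change of the members was −0.33, against −0.02 for all genes.

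The values are normalised read counts, which the authors rounded to whole numbers. They summed to 13596488 to 15545903 per sham library and 14568669 to 16263086 per injury library. Fold changes were computed on log2(value + 1). The tendon markers Tnmd, Scx, Mkx and Thbs4 were present in every library, and 6 of 8 tendon markers were called higher. The other 2, Col1a1 and Col1a2, did not pass (adjusted p = 0.0524 and 0.133 in limma). Their log2 fold changes were 1.77 and 1.49, and their injury values were all above their sham values. Skeletal muscle RNA was present too: a list of 22 muscle genes held 5.91 to 10.3% of the summed values in sham libraries and 0.352 to 2.16% in injury libraries, and all 22 fell. In bulk tissue, fewer cells of a type and less RNA per cell cannot be told apart.

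The 250 bases upstream of the start sites of the 2 ligand genes that rose are shown because they differ in composition from those of the other members. They are RefSeq sequences on GRCm38.p6, both on the forward strand, at chr1:53061390-53061639 for Mstn and chr13:16011601-16011850 for Inhba. Capitals mark matches to 3 motifs on either strand. One is the E-box, CANNTG, which helix-loop-helix factors such as the myogenic ones bind. The next is the TATA box, searched as TATAAA. The last is the AP-1 site, searched as TGANTCA.
Mstn: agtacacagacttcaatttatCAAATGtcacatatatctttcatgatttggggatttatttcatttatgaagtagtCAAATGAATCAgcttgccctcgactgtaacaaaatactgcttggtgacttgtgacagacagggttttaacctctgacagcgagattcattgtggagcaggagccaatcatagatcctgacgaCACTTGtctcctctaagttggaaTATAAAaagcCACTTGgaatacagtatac
Inhba: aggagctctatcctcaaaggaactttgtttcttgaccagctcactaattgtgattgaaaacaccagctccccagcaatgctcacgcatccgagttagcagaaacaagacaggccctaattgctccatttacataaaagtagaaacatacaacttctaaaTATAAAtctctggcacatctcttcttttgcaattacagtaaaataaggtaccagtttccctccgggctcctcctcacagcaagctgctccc
The Mstn window holds 4 E-box matches, 1 TATA match that starts at position −29 from the start site, and 1 AP-1 match that shares 2 bases with an E-box match. The Inhba window holds 1 TATA match, at position −91, and no match to the other motifs. These matches were not limited to the windows shown: that of Fstl3 holds 3 E-box matches and 1 TATA match, also at position −29, and that of Acvr1b holds 1 E-box match. Of 32851 RefSeq promoter windows of the same length, 66.2% hold an E-box match, 12.4% a TATA match and 6.75% an AP-1 match. The Mstn window is 38.4% G and C and the Inhba window 43.2%, against a median of 52.4% over all windows. Windows of the other members that matched the RefSeq table were richer in G and C, at 68.0% for Inhbb, 71.2% for Fstl3, 72.8% for Acvr2b, 78.8% for Acvr1b and 82.0% for Acvr2a. In all, 7 of the 8 members matched that table. No member's window held the SMAD palindrome GTCTAGAC, found in 0.167% of windows, or the forkhead site GTAAACA, found in 3.17%. These are letter matches in short windows, and binding was not measured.

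Mstn (ENSMUSG00000026100.6), the myostatin gene, spans chr1:53061640-53068079 (forward strand; GENCODE M21 on GRCm38, as for all members). Its normalised read counts were 263, 228, 104 and 483 in sham replicates 1 to 4 and 1721, 1928, 3367 and 1094 in injury replicates 1 to 4, the order used throughout. Every injury library was above every sham library, the nearest pair being sham replicate 4 and injury replicate 4. The mean went from 269.5 ± 158 to 2028 ± 961 (SD, n = 4 each). The log2 fold change was 2.99 (SE 0.46, adjusted p = 0.000481 in limma), which ranked 98 from the highest among all tested genes. Its 95% interval ran from 1.95 to 4.03.

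Between the groups, Mstn went the opposite way from skeletal muscle RNA. Within sham, replicate 3 was lowest and replicate 4 highest both for Mstn and for the summed muscle genes, which were 1017568, 1030669, 803575 and 1602320 in sham replicates 1 to 4. Among the injury libraries the muscle sum was 51289, 94529, 245207 and 350891. Over injury replicates 1 to 3 Mstn rose with it, from 1721 to 1928 and 3367. Injury replicate 4, with the most muscle RNA, had the lowest Mstn value of the injury libraries, 1094. Per 100000 counts of the muscle genes, Mstn stood at 25.8, 22.1, 12.9 and 30.1 in sham and at 3356, 2040, 1373 and 312 in injured tendon. The within-library log2 difference of Mstn from the mean of the muscle list moved from −7.15 ± 0.47 to −1.29 ± 1.48 (SD, n = 4 each). That is a shift of 5.86, with p = 0.0286 in a two-sided exact permutation test, the smallest p that 4 against 4 libraries can give. Adjusted over the 6 within-library differences tested, the exact permutation p was 0.0343. Since Mstn and the muscle sum had each separated the groups, in opposite directions, the separation of their difference adds nothing to that, and the shift gives its size. A further list of muscle genes, most but not all of them precursor or regulator genes, fell with the muscle list. All 6 with values, Pax7, Myod1, Myog, Myf6, Cdh15 and Chrna1, were called lower in injured tendon. The groups overlapped for Myog, and Myf5 had no values.

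**Figure D1:**
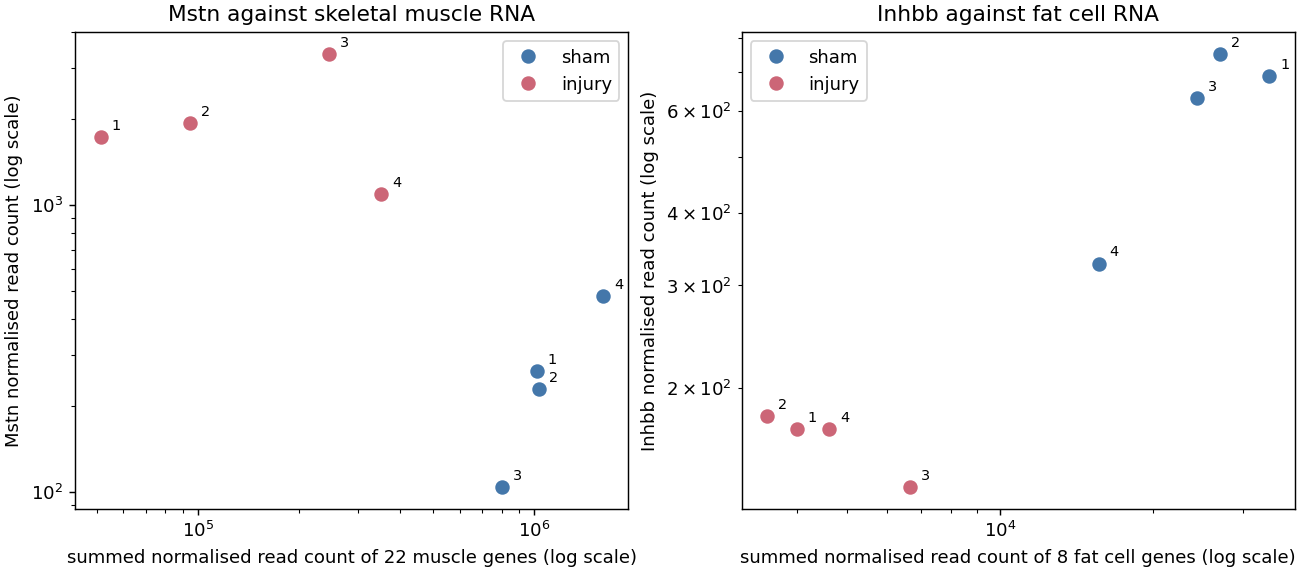
Mstn against the summed values of 22 skeletal muscle genes (left) and Inhbb against the summed values of 8 fat cell genes (right), in normalised read counts on log scales. Each point is 1 library with its replicate number. On the left the 4 injury libraries lie above and to the left of the 4 sham libraries, from 1094 to 3367 for Mstn. On the right sham replicate 4, at 327, is lowest of the sham libraries on both axes.

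Inhba (ENSMUSG00000041324.14), which encodes the beta A subunit of activin A, spans chr13:16011851-16031621 (forward strand). It had 379, 383, 381 and 463 normalised read counts in sham and 958, 1365, 1400 and 2071 in injury libraries. The sham libraries were closely alike apart from replicate 4, and the lowest injury library was above all of them. The mean rose from 401.5 ± 41.0 to 1449 ± 461 (SD, n = 4 each), a log2 fold change of 1.80 (SE 0.20, adjusted p = 7.99e-05 in limma). With the mean of the muscle list as a covariate the log2 fold change was 2.71 (adjusted p = 3.86e-05 in limma), a larger rise.

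Inhbb (ENSMUSG00000037035.5), which encodes the beta B subunit of activin B and in mice is also known from fat cells, spans chr1:119415465-119422248 (reverse strand). Its values were 687, 751, 630 and 327 in sham and 170, 179, 135 and 170 in injury libraries. The groups did not overlap, and sham replicate 4 lay apart from the other sham libraries, toward the injury values. The mean went from 599 ± 188 to 163.5 ± 19.5 (SD, n = 4 each), a log2 fold change of −1.81 (SE 0.24, adjusted p = 0.000214 in limma). Fat cell RNA moved in the same direction: all 8 genes of a fat cell list, Adipoq, Plin1 and Lep among them, fell, with a median log2 fold change of −2.79. Their summed values ranged from 15648 to 33844 over the sham libraries and from 3486 to 6667 over the injury libraries, and sham replicate 4 had the lowest sham value there too. Per 1000 counts of these genes, Inhbb stood at 20.3, 27.7, 25.8 and 20.9 in sham and at 42.6, 51.3, 20.2 and 36.8 in injury libraries. The ranges overlapped through injury replicate 3 alone, and every other injury library was above all sham libraries. With the mean of the fat cell list as a covariate, which was added after the data were seen, the log2 fold change of Inhbb was −0.89 (SE 0.77, adjusted p = 0.503 in limma). In that fit no member was called and 586 genes were called in all. The fat cell mean itself separates the groups, and so does the muscle mean.

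Fst (ENSMUSG00000021765.9), which encodes follistatin, spans chr13:114452290-114458951 (reverse strand). It had 657, 509, 556 and 669 normalised read counts in sham and 272, 304, 475 and 383 in injury libraries. The groups did not overlap, though injury replicate 3 came close to sham replicate 2. The mean went from 598 ± 77.9 to 358.5 ± 90.6 (SD, n = 4 each), a log2 fold change of −0.76 (SE 0.17, adjusted p = 0.00428 in limma). With the muscle covariate the log2 fold change of Fst was −0.07 (adjusted p = 0.843 in limma), so its call did not hold in that fit.

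Fstl3 (ENSMUSG00000020325.10), which encodes follistatin-like 3, spans chr10:79777272-79782630 (forward strand). Its values varied little within a group, at 140, 133, 128 and 129 in sham and 209, 200, 187 and 208 in injury libraries. The groups lay well apart, and the log2 fold change was 0.60 (SE 0.08, adjusted p = 0.000232 in limma). Of its exons, 1157 bases overlap those of Prss57 on the other strand. Prss57, a serine protease gene of myeloid cells, rose as well, from 84.5 ± 9.54 to 132.5 ± 14.9 (SD, n = 4 each; log2 fold change 0.64). No source used here says whether counting used strand, so reads in these shared bases cannot be assigned to 1 of the 2 genes.

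**Figure D2:**
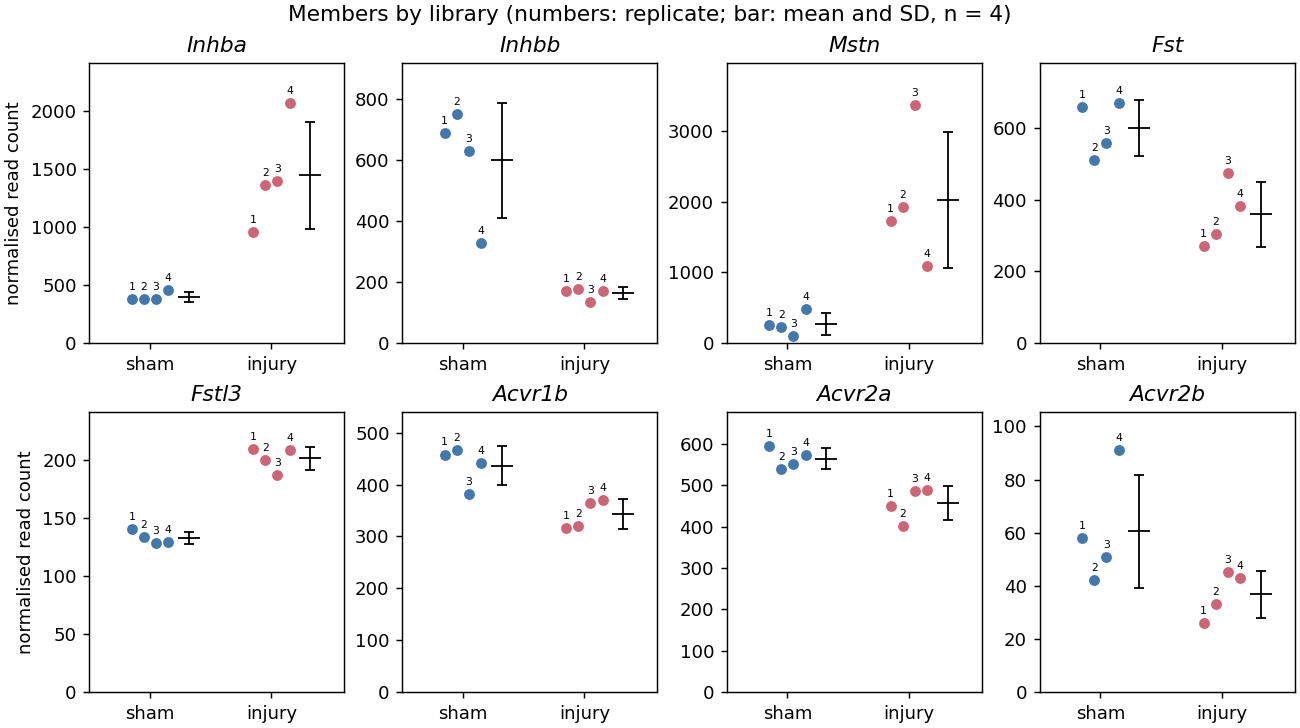
Normalised read counts of the 8 members in each library, on linear axes that start at 0. Numbers are replicates, and the bar at the right of each group is its mean with the SD (n = 4). The groups are apart for every member except Acvr2b, whose sham values of 42 to 91 overlap injury values of 26 to 45.

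The receptor genes changed less than the ligand genes. Acvr1b (ENSMUSG00000000532.11), which encodes the type I receptor ALK4, spans chr15:101174067-101213684 (forward strand). It had 458, 466, 382 and 441 normalised read counts in sham and 316, 320, 365 and 371 in injury libraries. Sham replicate 3 was only slightly above the highest injury library. The log2 fold change was −0.35 (SE 0.09, adjusted p = 0.00912 in limma).

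Acvr2a (ENSMUSG00000052155.5), a type II receptor gene, spans chr2:48814109-48903269 (forward strand). Its values were 596, 540, 551 and 573 in sham and 451, 402, 487 and 488 in injury libraries, with no overlap. The log2 fold change was −0.31 (SE 0.08, adjusted p = 0.00817 in limma). Its exons share 446 bases with Orc4 on the other strand. Orc4, a gene of the origin recognition complex, fell by 0.28 on the log2 scale, and reads in the shared bases cannot be assigned either.

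Acvr2b (ENSMUSG00000061393.14), the other type II receptor gene, spans chr9:119402118-119434995 (forward strand) and was the lowest member in both groups. It had 58, 42, 51 and 91 normalised read counts in sham and 26, 33, 45 and 43 in injury libraries. The groups overlapped, and the log2 fold change of −0.68 (SE 0.26, 95% interval −1.27 to −0.08) had an adjusted p of 0.0501 in limma. Sham replicate 4, the library with the most muscle RNA, was the highest. Without sham replicate 4 the log2 fold change was −0.46 (adjusted p = 0.115 in limma), and without sham replicate 2 it was −0.83 (adjusted p = 0.0291 in limma). It also passed without injury replicate 3 (adjusted p = 0.0464 in limma) or injury replicate 4 (adjusted p = 0.0499 in limma), in a range of 0.0213 to 0.643 over all its alternatives. With the muscle covariate the calls of Acvr1b (adjusted p = 0.797) and Acvr2a (adjusted p = 0.580) did not hold in limma, and the log2 fold change of Acvr2b was 0.28.

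**Figure D3:**
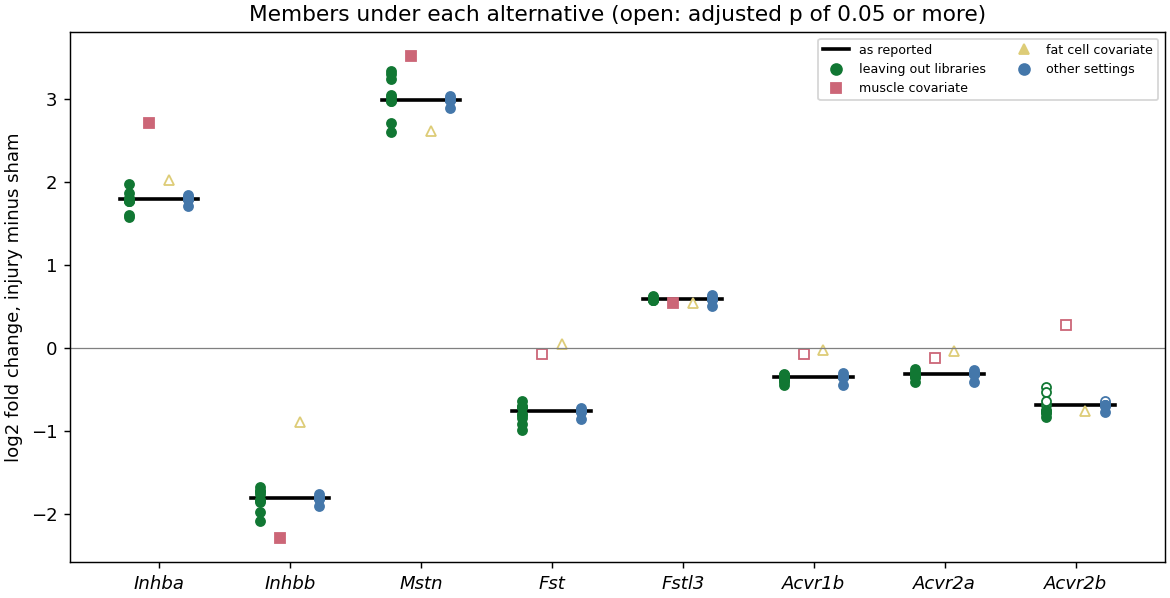
Log2 fold change of each member, injury minus sham, as reported (black line) and under each alternative setting (points). Filled points have an adjusted p under 0.05 in limma. Mstn lies between 2.60 and 3.52 over its alternatives and Fstl3 between 0.51 and 0.64, while Fst, Acvr1b and Acvr2a lie near 0 with either covariate.

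Levels were compared between members per kilobase of exon, with exon lengths from GENCODE M21. In sham tendon Inhbb (141 ± 44.1 normalised read counts per kilobase) and Fst (130 ± 17.0) were highest, followed by Mstn (99.6 ± 58.3), Acvr2a (99.4 ± 4.36) and Acvr1b (98.9 ± 8.59), each SD over n = 4. The ranges of each neighbouring pair among these 5 overlapped. Inhba followed at 62.8 ± 6.42 per kilobase, then Fstl3 at 54.2 ± 2.23 and Acvr2b at 15.4 ± 5.44, and the ranges of these neighbours did not overlap. The sham range of Mstn, 38.4 to 179 per kilobase, took in those of both Inhba and Fstl3. In injured tendon the order was led by Mstn, at 750 ± 355 per kilobase, and Inhba, at 227 ± 72.1, whose ranges were apart from each other and from those below. Fstl3, Acvr2a, Fst and Acvr1b lay together at 82.2 ± 4.16, 80.4 ± 7.12, 78.1 ± 19.7 and 77.6 ± 6.57 per kilobase, with overlapping neighbours. Inhbb had dropped to 38.4 ± 4.58 per kilobase, above only Acvr2b at 9.36 ± 2.26. Within these 8 genes, Inhbb thus went from the first place by mean to the seventh, and Inhba from the sixth to the second.

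The balance between ligand and inhibitor RNA was followed within each library. Per kilobase, the ratio of Inhba to Fst was 0.414, 0.540, 0.492 and 0.497 in sham and 2.53, 3.22, 2.12 and 3.88 in injury libraries. Fst was thus above Inhba in every sham library and below it in every injury library. The log2 difference of Inhba from Fst moved by 2.56, that of Inhba from Fstl3 by 1.20 and that of Inhba from Inhbb by 3.61. Each of these had an exact permutation p of 0.0286 (two-sided, 0.0343 adjusted over 6 differences) and no overlap between the groups. For Fst and Inhbb that followed from the separation of the single genes in opposite directions, while Inhba and Fstl3 both rose and their difference was not fixed in this way. The adjusted p of 0.0343 for Inhba and Fstl3 still depends on the fixed differences, which share the adjustment and the same p. The 2 inhibitor genes changed unequally, since the difference of Fst from Fstl3 went from 2.16 ± 0.18 to 0.80 ± 0.41 (SD, n = 4 each; exact permutation p = 0.0286, adjusted 0.0343), which again followed from their opposite directions. The difference of Acvr2a from Acvr2b moved by 0.37, with overlapping groups and an exact permutation p of 0.286, before and after adjustment. Summed per kilobase, the 3 ligand genes stood at 1.65 ± 0.22 times the 2 inhibitor genes in sham and 6.28 ± 1.58 times in injured tendon (SD, n = 4 each). Most of the ligand sum after injury was Mstn, at a mean of 750 per kilobase against 227 for Inhba and 38.4 for Inhbb. RNA ratios say nothing of protein amounts, which were not measured.

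**Figure D4:**
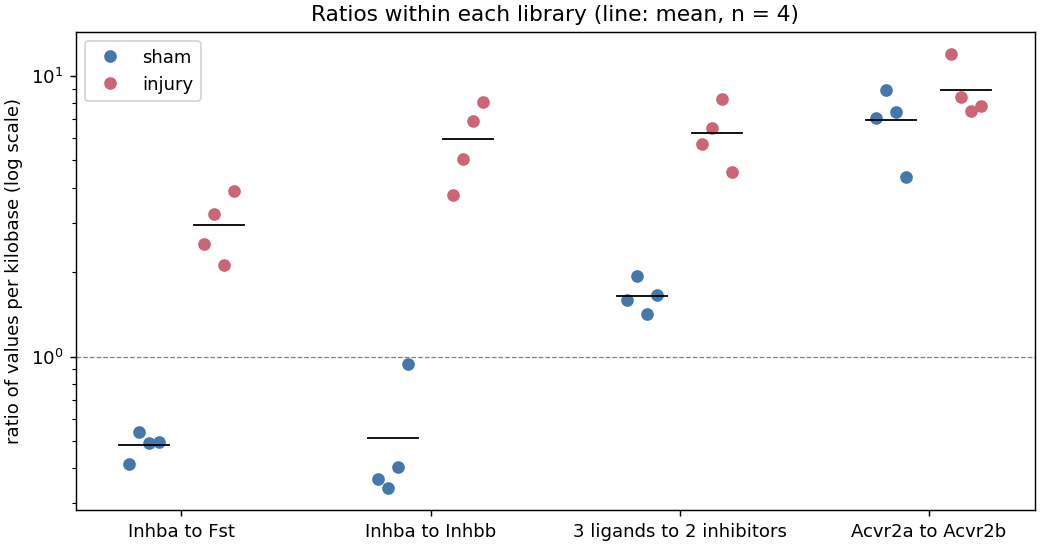
Ratios of values per kilobase of exon within each library, on a log scale. The horizontal line is the mean of 4 libraries and the dashed line a ratio of 1. Inhba to Fst lies at 0.414 to 0.540 in sham and 2.12 to 3.88 in injured tendon, and the ratio of Acvr2a to Acvr2b overlaps between the groups.

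Likeness of pattern was measured as the root mean square difference, over the 8 libraries, of log2(value + 1) after each gene was centred on its own mean, among 11928 other genes whose mean reached 50 and whose symbols were not predicted or numbered ones. The genes most like Inhba were Cd4 (0.14), Plod2 (0.17) and Xylt1 (0.19). Those most like Fst were Fuom (0.07), Klhl21 (0.10) and Nubpl (0.11). Those most like Mstn were farther away, with Dclk1 at 0.50, Ttyh1 at 0.50 and Tac1 at 0.53.

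Other genes of the pathway, 57 in 6 lists chosen by role, were read from the same test. Of the 43 with values, 20 rose, 13 fell and 10 did not pass, against 28.5% higher and 31.3% lower over all genes. Their median log2 fold change was 0.14. With the muscle covariate 16 were called higher and 3 lower, where 2254 and 1742 of all 15747 genes were.

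Of 8 other ligand genes only Gdf11, whose product is the closest relative of myostatin, and Inha, the inhibin alpha subunit gene, had values, and neither passed. For Inha the normalised read count went from 94.3 ± 19.4 to 55.5 ± 21.3 (SD, n = 4 each), with an adjusted p of 0.0510 in limma. Its groups did not overlap, at 72, 112, 109 and 84 in sham and 69, 68, 61 and 24 in injury libraries. Inha was called lower in some alternatives, among them equal totals, the muscle covariate and leaving out injury replicate 1, 2 or 4. For Gdf11 the normalised read count went from 246 ± 134 to 184 ± 28.7 (SD, n = 4 each), with an adjusted p of 0.437 in limma. Its sham libraries held 180, 217, 144 and 442, so replicate 4 was again the highest, and without it the log2 fold change was 0.04 in place of −0.29.

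Among 7 other receptors and co-receptors with values, 2 rose and 3 fell. Acvr1, a type I receptor gene that serves BMPs and can bind activin, rose from 536.5 ± 61.8 to 905 ± 77.8, with a log2 fold change of 0.76 (adjusted p = 0.000198 in limma). Tgfbr1, the type I receptor for TGF-beta that myostatin can also use, rose from 1242 ± 23.4 to 1763 ± 83.8, by 0.50 on the log2 scale (adjusted p = 0.000107 in limma). Acvr1c, encoding the type I receptor ALK7, which serves activin B and is known from fat cells, was far lower, at 206, 221, 230 and 142 in sham and 18, 20, 44 and 27 in injury libraries. Its log2 fold change was −2.89 (SE 0.28, adjusted p = 3.93e-05 in limma), and sham replicate 4 was the lowest sham library, as for Inhbb. Igsf1, an immunoglobulin superfamily membrane protein gene, went from 119.3 ± 13.9 to 18.8 ± 11.6, also by −2.89 (adjusted p = 0.000945 in limma). Under the muscle covariate the log2 fold change of Igsf1 was smaller (−1.01) and that of Tgfbr3 larger (−0.49, against −0.32 without it, with an SE of 0.23 against 0.12), and neither was called, which left 1 receptor gene called lower in place of 3. Tgfbr3, the co-receptor betaglycan, had an adjusted p of 0.0484 in limma, which did not stay under 0.05 without any 1 of 7 of the 8 libraries, sham replicate 4 being the exception.

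Among 6 other extracellular inhibitors with values, 1 rose and 4 fell. Fstl1, a secreted protein with a follistatin domain, rose from 4968 ± 559 to 21976 ± 802, with a log2 fold change of 2.15 (adjusted p = 1.33e-06 in limma). Wfikkn2, whose product binds myostatin and GDF11, went from 93 ± 18.5 to 41.8 ± 9.64, a log2 fold change of −1.15 (adjusted p = 0.00126 in limma; with the muscle covariate −0.68 and 0.222). The BMP antagonist gene Nog went from 57.5 ± 13.4 to 11 ± 3.56, a log2 fold change of −2.30 (adjusted p = 9.81e-05 in limma). Grem1, another BMP antagonist gene, went from 1093 ± 558 to 273 ± 201, a log2 fold change of −2.18 (adjusted p = 0.00503 in limma). Nog was the 1 inhibitor gene still called lower with the muscle covariate, in which Grem1 had a log2 fold change of −1.22 with an SE of 0.92. Dcn, the decorin gene and the most abundant of these, stood at 124396 ± 23971 against 118242 ± 15794 after injury, with an adjusted p of 0.880 in limma.

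All 5 measured proteases that process the precursors rose. Pcsk5, a proprotein convertase gene, went from 202 ± 16.2 to 629 ± 70.9, a log2 fold change of 1.63 (adjusted p = 3.77e-06 in limma). Bmp1 and Tll1, tolloid proteases that cut the myostatin propeptide as well as procollagens, rose by 1.76 and 1.58 on the log2 scale (adjusted p = 9.6e-06 and 5.75e-06 in limma). Furin and Pcsk6, named because they complete the list, rose by 0.77 and 0.43. The groups overlapped for Pcsk6 (adjusted p = 0.0176 in limma). With the muscle covariate 4 of the 5 were called higher, and with the fat cell covariate 2.

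Of 13 signal transducers and their inhibitors with values, 6 rose and 4 fell. The SMAD corepressor genes Skil and Ski rose by 1.05 and 0.77 on the log2 scale (adjusted p = 3.13e-06 and 4.84e-05 in limma), and Smad2 rose by 0.51 (adjusted p = 0.000254 in limma). The inhibitory genes Smad7 and Smad6 fell by 0.42 and 0.36 (adjusted p = 0.00296 and 0.0067 in limma). With the muscle covariate their log2 fold changes were larger, −0.50 and −0.45, with larger SEs of 0.18 each, and neither was called (adjusted p = 0.0692 and 0.0936 in limma). Synj2bp, whose product is known to affect activin type II receptor trafficking in mouse, fell by 0.35 (adjusted p = 0.0134 in limma). In the fit with the muscle covariate its log2 fold change was −0.05, and 0 of these 13 genes were called lower. Smad3, named after its values were seen, did not pass, with 2024 ± 147 against 1919 ± 138 after injury and an adjusted p of 0.429 in limma.

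Of 10 genes known to respond to SMAD2 and SMAD3 or to take part in muscle atrophy, 6 rose and 2 fell. Pmepa1, a TGF-beta-induced inhibitor of SMAD signalling, rose from 1082 ± 58.3 to 3111 ± 372, with a log2 fold change of 1.52 (adjusted p = 3.83e-06 in limma). Foxo3 and Akt1 rose by 0.97 and 0.58 on the log2 scale (adjusted p = 3.76e-05 and 4.53e-05 in limma). Ccn2, a matricellular protein gene, had 5198 ± 1233 against 15777 ± 4340 after injury, a log2 fold change of 1.59 (adjusted p = 0.000297 in limma), which was 0.87 and not called with the muscle covariate (adjusted p = 0.0851 in limma). The 2 that fell were the muscle ubiquitin ligase genes Trim63, from 1329 ± 447 to 251.5 ± 201, and Fbxo32, from 2384 ± 867 to 686 ± 280. With the muscle covariate their log2 fold changes were 0.10 and −0.42, and neither was called.

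**Figure D5:**
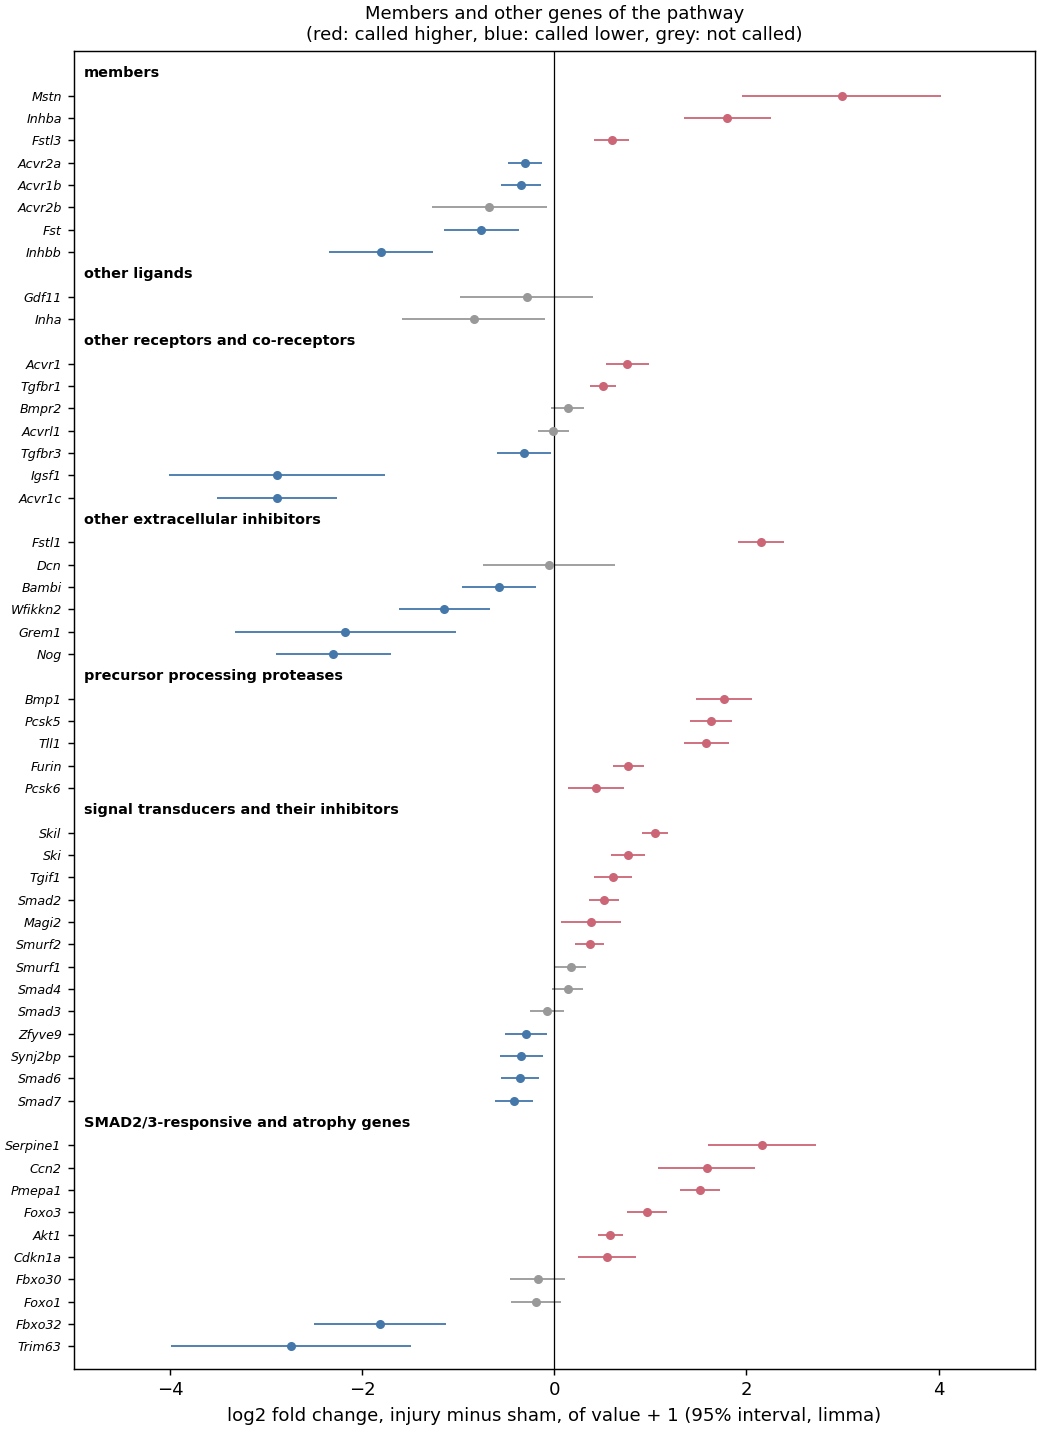
Log2 fold change of value + 1, injury minus sham, with its 95% interval from limma, for the 8 members and the 43 measured genes of the 6 pathway lists. Red points were called higher, blue points lower and grey points not called. The 5 processing proteases all lie to the right of 0 and the 2 measured other ligand genes to the left. The remaining groups lie on both sides.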

How the data were processed

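Bulk RNA sequencing of mouse Achilles tendon gave 8 libraries, grouped as sham or injury by their titles. What the authors deposited is a score for every gene: a normalised count, per the file headers, rounded to a whole number. In 6 of 8 libraries some whole numbers are missing or overfilled, as rounding a scaled count leaves, so these are not raw counts, and no count test was run. The submitters' processing notes name edgeR 3.12, StringTie 1.3.5, STAR 2.7.6a and Trimmomatic 0.39, and the builds mm10 and mm9, without their roles. No source used here gives the normalization or the strandedness.

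Limma 3.58.1 in R 4.3.3 was run on log2(value + 1) for genes reaching a value of 1 in 4 or more libraries, which all 15747 with values did, with group as the only term, a prior variance that followed mean expression and Benjamini-Hochberg adjustment over all genes. Totals of 13596488 to 16263086 per library are not sequencing depths, which are unknown. Within-library differences had exact permutation tests (scipy 1.17.1). Equal values were found for 1.11 to 2.25% of genes in pairs of the same group, so no library was counted as a duplicate. Coordinates and exon lengths are from GENCODE M21 (GRCm38, the build mm10 names), with which all 8 member identifiers matched in version.

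The members and lists were chosen with earlier results of these data known. Named genes are the 8 members and, per pathway list, up to 3 called genes with the smallest adjusted p in each direction and the most abundant one, and others where the text says so or where a count is small. Alternatives covered 3 scalings, a pseudocount of 0.1, other filters, a single prior variance, the replicate number as a block, muscle and fat cell covariates and libraries left out. Python 3.11.15 and matplotlib 3.10.9 served for the plots.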

Additional observations from a re-analysis of the deposited data

Results flagged for a closer look

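The screen covered each member, each pathway gene picked by smallest adjusted p or highest abundance, and each within-library difference, in sham and in injury. Other genes named in the text were not screened. Of these 80 groups of 4 libraries, 3 had 1 library far from the other 3. Its gap to the nearest of them over the whole range was above 0.829. Chance flags about 1 in 20 such groups. Inhba had 463 normalised read counts in sham replicate 4, while the other sham libraries lay between 379 and 383. Smad2 had 674 in injury replicate 4, while the other injury libraries lay between 605 and 614. The log2 difference of Inhba from Inhbb was 0.50 in sham replicate 4, while the other sham libraries lay between −0.97 and −0.72. Sham replicate 4 also had the most muscle RNA and the least fat cell RNA of the sham libraries. Without sham replicate 4 the log2 fold change was 1.87 for Inhba and −2.07 for Inhbb.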

How the results depend on the processing

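Of 1440 recomputed values for 79 results, 1288 stayed the same, meaning the same direction and side of the threshold for a tested value and within 1.5 times for a count of called genes. The setting without a filter could not differ, since every gene with values passed the filter, and its values are counted among the same. With the muscle covariate limma called 3996 genes, 2254 higher and 1742 lower, and 3 pathway genes and 1 member lower. The log2 fold changes of Fst (−0.072), Acvr1b (−0.063) and Acvr2a (−0.12) were then not called, those of Acvr2b (0.28), Gdf11 (0.64) and Trim63 (0.10) changed sign, and Inhba, Inhbb, Mstn and Fstl3 kept their calls. The adjusted p-values of Inhbb, Mstn and Fstl3 were higher than without the covariate, at 0.00559, 0.0168 and 0.0458 in limma. With the fat cell covariate, added after the data were seen, 586 genes were called, 501 higher and 85 lower, with 4 pathway genes higher and 0 lower and 0 members higher and 0 lower. The log2 fold changes were then 2.02 for Inhba, −0.89 for Inhbb, 2.61 for Mstn, 0.047 for Fst, 0.55 for Fstl3, −0.019 for Acvr1b and −0.036 for Acvr2a, with adjusted p-values of 0.132 to 0.976 in limma, and those of Tgfbr3 (0.28) and Dcn (0.52) changed sign. Both covariates separate the groups, and the SE of Inhba was 0.69 with the fat cell covariate against 0.20 without. Acvr2b passed in limma with equal totals (−0.77, adjusted p = 0.0213). It also passed when the 3 libraries sham 4, injury 3 and injury 4 were dropped at once (−0.75, adjusted p = 0.0273), and under a replicate block (−0.68, adjusted p = 0.0284). That block ended no member's call. Same-numbered libraries deviated together with r of 0.249, 0.284, −0.01 and 0.493, and for 2 of 4 numbers both libraries correlated best with each other. Since not every pair was over 0.1, the libraries were not treated as paired. With 1 library left out, all 7 called members kept their calls and Acvr2b ranged from −0.83 to −0.46. Gdf11 then ranged from −0.50 to 0.037 and Dcn from −0.20 to 0.018. The within-library shifts ranged from 2.41 to 2.705 (Inhba from Fst), 1.03 to 1.40 (Inhba from Fstl3), 3.44 to 3.94 (Inhba from Inhbb), −1.54 to −1.22 (Fst from Fstl3) and 5.40 to 6.55 (Mstn from muscle), and 3 against 4 libraries cannot give an exact p under 0.0571. The cause of these changes was not tested. Equal totals moved the median over all genes to −0.11 and the calls to 3428 higher and 5553 lower, and upper-quartile factors gave 4822 higher and 4547 lower.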

Other observations

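Markers of other cells that a dissected tendon can hold were counted in the same test, from lists chosen with earlier results known. Of 8 fibroblast markers 7 rose, with a median log2 fold change of 2.89, and of 8 macrophage markers 5 rose and 1 fell, Cd163, named after its values were seen, at 490 ± 99.2 normalised read counts in sham and 150 ± 39.6 in injured tendon (SD, n = 4 each). Of 7 endothelial markers 1 rose and 4 fell. Of 5 Schwann cell markers 4 fell. Of 5 smooth muscle markers 3 fell, Myh11, Cnn1 and Des, while Acta2 and Rgs5 did not pass. Des fell by 2.82 on the log2 scale, beside a median log2 fold change of −3.00 for the 22 skeletal muscle genes. Over all genes 28.5% were called higher and 31.3% lower. Of 6 lymphocyte markers only Ptprc, the pan-leukocyte gene, had values, and it rose, with a median log2 fold change of 0.84 for the list, while the T and B cell genes Cd3e, Cd3g, Cd79a, Cd79b and Ms4a1 had none. The tendon list had 2 members that did not pass, Col1a1 and Col1a2, whose groups nonetheless did not overlap, and a median log2 fold change of 1.32.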
